A study of Homo sapiens with 12 samples.

Results

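Glycolysis and hypoxia target genes were followed in SET-2 cells, an established human line that the labels describe as acute myeloid leukemia. The set held 36 of the 63677 genes in the count tables, picked by symbol and matched by Ensembl identifier, by a rule that uses no measured value. It comprised 4 transporters of glucose and lactate, 17 glycolytic enzymes, 4 regulators of glycolysis and 11 targets of hypoxia signaling, and it left out the hypoxia-inducible factors themselves. All 36 matched a row of the tables. Although the rule uses no measured value, earlier results of these data were known when the members were chosen. Comparisons with the shares of all genes therefore describe the set and do not test it. LSD1, the histone demethylase encoded by KDM1A, was wild type (WT) in 6 libraries and carried an inserted arginine between leucine 659 and asparagine 660 (insR) in the other 6. Drug-resistant is the labels' word for the insR cells. Cells of each kind received 0.1% (v/v) DMSO or 250 nM GSK-LSD1, an LSD1 inhibitor, for 48 h, which gave 4 groups of 3 libraries (WT DMSO, WT GSK-LSD1, insR DMSO and insR GSK-LSD1). Cells given DMSO alone are called untreated. All groups shared the same line and the same culture medium, and how the insR cells were obtained, as a clone or as a pool, is not given in the sources used here. The insertion therefore cannot be told apart from other differences between these cell stocks.

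Glycolysis splits glucose into pyruvate through a chain of cytosolic enzymes, and lactate dehydrogenase turns pyruvate into lactate, which leaves the cell through monocarboxylate transporters. Under low oxygen the hypoxia-inducible factors, made of an oxygen-sensitive alpha subunit and a stable partner, bind short response elements and raise transcription of many of these enzymes and transporters, together with genes for angiogenesis, mitophagy and collagen modification. Red cells and many leukemic cells rely on glycolysis, and SLC2A1 is the main glucose transporter of human red cells.

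The letters of the hypoxia response element core, ACGTG or GCGTG on either strand, were searched in the 250 bases before each gene's start in the RefSeq promoter table (GRCh38.p14, a later build than the authors' hg19). The search of ACGTG on both strands counts CACGTG as 2 overlapping matches. Windows were found for 31 of the 36 members, and BNIP3L, NDRG1, SLC16A1, SLC2A3 and VEGFA had no entry. Of the 31 members, 26 (83.9%) held a match in at least 1 window, against 47.4% of the 27305 genes in the table. ACGTG alone was in 21 of 31 members (67.7%), against 21.7% of all genes. Counted per window, since some genes have several starts, 59.6% of the members' 57 windows held a match, against 43.2% of all 35116 windows. A match was present in 14 of the 16 members with a window that were lower under GSK-LSD1 in WT cells, in 5 of 6 that were higher and in 7 of 9 that were not called or not tested. Per window the shares were 61.8% of 34 for the lower members, 41.7% of 12 for the higher and 72.7% of 11 for the others. The higher members were thus near the 43.2% of all windows. The SLC2A1 window held none. A match is a run of letters and not evidence of binding. The windows below, read 5′ to 3′ on the gene's strand with the matches in capitals, belong to 2 members that fell in WT cells, LDHA (chr11:18394313-18394562, plus strand) and PFKFB4 (chr3:48556804-48557053, minus strand), and 2 that rose, DDIT4 (chr10:72273674-72273923, plus strand) and ANKRD37 (chr4:185396591-185396840, plus strand). They are shown because members of both directions carry the element's letters.
LDHA: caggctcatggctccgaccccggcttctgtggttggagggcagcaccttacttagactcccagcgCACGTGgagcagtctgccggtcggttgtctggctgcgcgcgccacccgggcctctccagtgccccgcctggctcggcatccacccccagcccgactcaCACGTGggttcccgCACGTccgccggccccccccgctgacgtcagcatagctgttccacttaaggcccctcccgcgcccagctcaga
PFKFB4: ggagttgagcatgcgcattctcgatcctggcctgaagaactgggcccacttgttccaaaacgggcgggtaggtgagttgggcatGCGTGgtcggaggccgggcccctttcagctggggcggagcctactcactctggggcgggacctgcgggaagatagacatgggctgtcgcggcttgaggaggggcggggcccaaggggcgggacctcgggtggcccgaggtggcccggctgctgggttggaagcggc
DDIT4: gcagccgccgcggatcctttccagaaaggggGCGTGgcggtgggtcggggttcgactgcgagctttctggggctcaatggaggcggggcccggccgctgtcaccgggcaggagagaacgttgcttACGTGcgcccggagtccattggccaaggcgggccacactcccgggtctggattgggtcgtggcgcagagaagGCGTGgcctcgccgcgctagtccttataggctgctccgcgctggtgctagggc
ANKRD37: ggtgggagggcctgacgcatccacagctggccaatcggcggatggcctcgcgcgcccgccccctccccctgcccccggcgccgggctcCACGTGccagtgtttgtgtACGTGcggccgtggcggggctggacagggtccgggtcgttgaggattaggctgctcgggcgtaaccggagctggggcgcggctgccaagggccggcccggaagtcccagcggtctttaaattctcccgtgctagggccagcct
The table has 2 LDHA starts, and the window shown, of the first, held 5 matches, all ACGTG, while that of the second (chr11:18396101-18396350) held 1, a GCGTG. The PFKFB4 window held 1, a GCGTG. Both DDIT4 and ANKRD37 windows held 3, of which 1 was ACGTG in DDIT4 and all 3 were in ANKRD37.

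Reads near the 3' ends of transcripts were counted per gene, and 4837096 to 10141155 reads per library fell in genes. Levels are given as CPM, counts scaled by TMM to a common library size, in the order of replicates 1, 2 and 3. A count of 0 allows up to 3 counts, worth 0.296 to 0.62 CPM in a library, and this limit covers counting error only. Whether replicates came from separate cultures is not given, and a p-value then reflects no more than the spread among these libraries, which may be technical. The 36 members took 0.767% to 1.02% of the reads in genes. KDM1A was at 265 ± 26.5 CPM (SD, n = 3) in untreated WT cells, 217 ± 3.01 in treated WT cells, 109 ± 2.18 in untreated insR cells and 106 ± 4.56 in treated insR cells, and gene counts do not show the insertion. The progenitor and leukocyte genes CD34 (295 CPM in untreated WT cells), KIT (407) and PTPRC (431) were expressed, while the granulocyte gene MPO had group means of 0.164 to 0.734 CPM, near the limit of detection. Of 12 erythroid genes, 11 could be tested and all 11 fell under the drug in WT cells. Their summed level was 2965 to 3082 CPM in untreated WT cells, 594 to 600.2 in treated WT cells, 5792 to 6694 in untreated insR cells and 4753 to 5304 in treated insR cells. Of 9 monocyte genes, 3 could be tested and all 3 rose, with summed levels of 94.8 to 118 CPM in untreated WT cells and 271 to 300.4 in treated WT cells, while CD163 and S100A8 were at 0 in all 12 libraries. Reads outside genes made up 16.3% to 16.7% of uniquely aligned reads in untreated WT cells and 18.4% to 19.5% in treated WT cells. The part of these shifts in the results on the members was not tested. In bulk RNA, fewer cells of a type and less RNA per cell cannot be told apart.

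Among the factors that act on these genes, HIF1A stood at 79.3 ± 9.79 CPM in untreated WT cells and 112 ± 7.60 in treated WT cells (SD, n = 3), a log2 fold change of 0.49 (edgeR adjusted p = 0.000237). In insR cells it was at 80.4 ± 6.24 and 74.4 ± 6.32 CPM (adjusted p = 0.895). EPAS1, which encodes another oxygen-sensitive alpha subunit, went from 1.42 ± 0.481 to 109 ± 8.89 CPM in WT cells and stood at 0.329 ± 0.0233 and 0.485 ± 0.335 in insR cells. These are transcript levels, and the oxygen control of both subunits acts on the protein.

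The first comparison asked how the members moved under GSK-LSD1 in WT cells. The glycolysis regulator PFKFB4 (4.22-fold), the glucose transporter SLC2A1 (4.13-fold), the angiogenic factor VEGFA (2.93-fold), the mitophagy gene BNIP3 (2.82-fold), the hexokinase HK1 (2.44-fold) and the lactate dehydrogenase gene LDHA (2.36-fold) fell. SLC2A3, HK2 and LDHB, of the same families as SLC2A1, HK1 and LDHA, were not called. PKM (2.14-fold), the mitophagy receptor BNIP3L (2.29-fold) and the stress gene DDIT4 (2.18-fold) rose. Of the 36 members, 33 had enough counts to test, and PGAM1, ADM and CA9 did not. By the edgeR test with Benjamini-Hochberg adjustment over 12864 genes, 25 of the 33 were called at an adjusted p below 0.05, where 45.2% of all genes tested were. Of these, 17 were lower and 8 higher, where 22.5% of all genes were lower and 22.7% higher. The median log2 fold change of the 33 was -0.36, against 0.01 over all genes. The direction was uneven across roles. Transport had 0 higher and 2 lower of 4, the enzymes 3 higher and 9 lower of 16, the regulators 0 higher and 2 lower of 4, and the hypoxia targets 5 higher and 4 lower of 9. P4HA2, counted among the hypoxia targets and the lower members, reached the count filter only through the untreated WT libraries, the high group, so its call is no support for a fall. Without it 8 of 32 members were higher and 16 lower, with a median of -0.33.

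**Figure D1:**
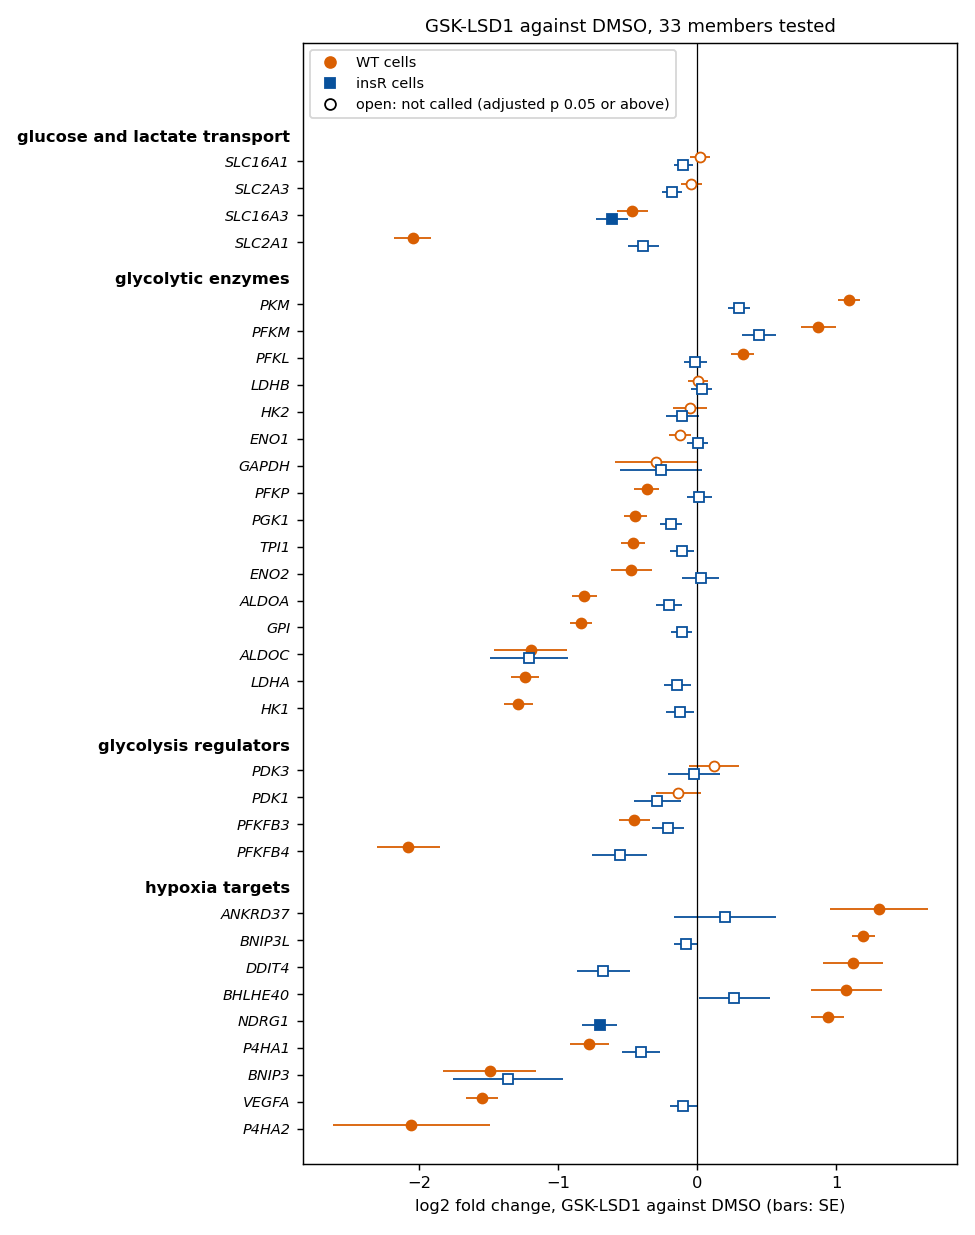
Log2 fold change under GSK-LSD1 of each tested member in WT cells (orange circles) and insR cells (blue squares), by role, with bars of 1 SE and open symbols for values not called at an adjusted p of 0.05; P4HA2 has no insR value because its counts there were 1 and 0. WT symbols spread from about -2 to above 1, while the filled insR symbols are only SLC16A3 and NDRG1.

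Transport was led by SLC2A1 (ENSG00000117394, chromosome 1), which encodes the glucose transporter GLUT1. It stood at 87.4, 92.2 and 72.3 CPM in untreated WT cells and at 14.6, 21.7 and 23.6 in treated WT cells. insR libraries held SLC2A1 at 175, 193 and 205 CPM in DMSO and 149.8, 150.2 and 138 under the drug. The 4 groups did not overlap, and every insR library was above every WT library. The WT log2 fold change was -2.05 (SE 0.13, adjusted p = 3.77e-11). Its insR value of -0.39 (SE 0.11) was not called at an adjusted p of 0.163, and it was called without WT GSK-LSD1 replicate 1 (0.0394) and when only the 2 insR groups were fitted (0.0194). The 2 responses differed by 1.66 (insR minus WT, adjusted p = 3.21e-07).

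SLC16A3, a monocarboxylate transporter that exports lactate, stood at 190.0, 180.5 and 214 CPM in untreated WT cells and 151, 123 and 148 in treated WT cells. insR libraries held SLC16A3 at 111, 90.6 and 84.5 CPM in DMSO and 55.9, 59.9 and 71.9 under the drug. The order of the groups was thus untreated WT cells, treated WT cells, untreated insR cells and treated insR cells, with no overlap between neighbours. It fell in both cell kinds, with log2 fold changes of -0.47 (SE 0.11, adjusted p = 0.00143) in WT and -0.61 (SE 0.12, adjusted p = 0.0129) in insR cells. The difference between the responses, -0.15 (SE 0.16), did not pass the test (adjusted p = 0.54). The insR call was lost without insR DMSO replicate 1 (adjusted p = 0.104), without insR GSK-LSD1 replicate 1 (0.105) and without insR GSK-LSD1 replicate 2 (0.0849). CSNK1D, which overlaps SLC16A3 on the opposite strand, moved the other way in WT cells, from 97.3 to 116 CPM (log2 fold change 0.26, adjusted p = 0.00917). The strand setting of the counting is not given in the sources used here.

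The other 2 transporters did not pass the test under the drug in either cell kind. SLC16A1, a monocarboxylate transporter that can carry lactate and pyruvate in both directions, stood at 559 ± 21.4 CPM in untreated WT cells, 568 ± 8.96 in treated WT cells, 876 ± 13.9 in untreated insR cells and 817 ± 27.2 in treated insR cells (SD, n = 3). It was higher in insR cells in DMSO (log2 0.65, adjusted p = 6.68e-08) and under the drug (0.53, adjusted p = 7.68e-07). SLC2A3, a high-affinity glucose transporter, stood at 170.2 ± 1.77, 165 ± 5.999, 202 ± 6.35 and 179 ± 6.44 CPM in the same order, and its transcript end is nearly the same as that of SLC2A14, so the split between them is uncertain.

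Of the enzymes up to phosphofructokinase, HK1, GPI and PFKP fell in WT cells, PFKM and PFKL rose, and HK2 was not called. HK1, the hexokinase that traps glucose in the cell, stood at 574, 599 and 739 CPM in untreated WT cells and 284, 226 and 272 in treated WT cells. insR libraries held HK1 at 669, 671 and 729 CPM in DMSO and 722, 581 and 598 under the drug. Treated WT libraries were the only low ones, and the 2 insR groups overlapped. The WT log2 fold change was -1.29 (SE 0.11, adjusted p = 2.68e-09) and the insR one -0.12 (adjusted p = 0.89). HK2, the hexokinase most often described as inducible, was at group means of 43.5, 41.9, 49.2 and 45.6 CPM in untreated WT cells, treated WT cells, untreated insR cells and treated insR cells, and it was called in none of the 5 comparisons. GPI, which converts the phosphate ester of glucose to that of fructose, fell from a mean of 332 to 186 CPM in WT cells (log2 -0.84, adjusted p = 6.41e-09).

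The 3 phosphofructokinase genes, for the committing step of the pathway, moved in different directions. PFKM, the muscle-type subunit, rose from 30.6 to 55.8 CPM in WT cells (log2 0.87, SE 0.13, adjusted p = 4.39e-06), and PFKL, the liver-type subunit, from 405 to 509 (0.33, adjusted p = 0.00211). PFKP, the platelet-type subunit, fell from 116 to 90.2 CPM (-0.36, adjusted p = 0.00238). In insR cells PFKM went from 40.7 to 55.2 CPM, which was not called (adjusted p = 0.123), and the other 2 had log2 fold changes of -0.01 and 0.02. PFKM overlaps SENP1 on the opposite strand, and SENP1 had a WT log2 fold change of -0.15 (adjusted p = 0.21).

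Aldolase splits the hexose into trioses. ALDOC, an aldolase best known from brain, stood at 13.0, 13.9 and 16.1 CPM in untreated WT cells and 8.89, 3.84 and 6.01 in treated WT cells. insR libraries held ALDOC at 10.7, 10.6 and 11.2 CPM in DMSO and 2.26, 6.22 and 5.73 under the drug. Treated libraries lay below untreated ones in both cell kinds, without overlap. The log2 fold changes were nearly the same size, -1.20 (SE 0.26, adjusted p = 0.00062) in WT and -1.21 (SE 0.28, adjusted p = 0.051) in insR cells, and only the WT value was called. The insR value passed under 8 alternatives, among them DESeq2 (0.0105) and limma-voom (0.0403), and leaving out WT DMSO replicate 3 (0.0353), WT GSK-LSD1 replicate 1 (0.0205) or WT GSK-LSD1 replicate 2 (0.0234). ALDOA, the aldolase of most cells, fell from 636 to 363 CPM in WT cells (-0.81, adjusted p = 1.21e-07) and went from 667 to 579.8 in insR cells (adjusted p = 0.591).

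TPI1, which interconverts the trioses, fell from 264 to 191 CPM in WT cells (log2 -0.46, adjusted p = 0.000143), and PGK1, the first ATP-forming step, from 445 to 327 (-0.45, adjusted p = 9.55e-05). GAPDH, often used as a reference gene, ranged widely within groups, at 2105, 1605 and 1427 CPM in untreated WT cells, 1644, 1455 and 1086 in treated WT cells, 2905, 2461 and 1770.2 in untreated insR cells and 1459.8, 1725 and 2787 in treated insR cells. The GAPDH groups overlapped except treated WT with untreated insR libraries, its SE was 0.30, and it was called in no comparison. ENO1, the main enolase, was at means of 1742, 1599, 1606 and 1610.1 CPM and was not called either. PGAM1, a mutase of this stretch, had summed counts of 11, 3, 4 and 5 in untreated WT cells, treated WT cells, untreated insR cells and treated insR cells. These counts do not show that the transcript was absent, since reads aligned to more than 1 place were set aside in the tables. For the last 400 bases of PGAM1 no pseudogene copy of at least 95% identity was found, and the cause of its low counts was not tested.

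ENO2, the enolase named for neurons, stood at 22.8, 20.0 and 18.8 CPM in untreated WT cells and 16.6, 13.4 and 14.4 in treated WT cells. insR libraries held ENO2 at 34.1, 29.4 and 36.03 CPM in DMSO and 29.8, 32.2 and 39.3 under the drug. Each insR library was above each WT library, and the 2 insR groups overlapped. The WT response of -0.47 (SE 0.15, adjusted p = 0.0128) was lost without WT DMSO replicate 1 (adjusted p = 0.055).

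At the end of the chain 2 genes moved in opposite directions. PKM (ENSG00000067225, chromosome 15), the pyruvate kinase gene, stood at 249, 225 and 236 CPM in untreated WT cells and 549, 488 and 482 in treated WT cells. insR libraries held PKM at 242, 233 and 215 CPM in DMSO and 281, 274 and 296 under the drug. Treated PKM libraries were above untreated ones in both cell kinds without overlap, by far more in WT cells. The log2 fold changes were 1.10 (SE 0.08, adjusted p = 4.91e-11) in WT and 0.30 (SE 0.08, adjusted p = 0.0956) in insR cells, with a difference of -0.79 (adjusted p = 1.01e-05). The insR value was called with DESeq2 (0.0474) and without WT GSK-LSD1 replicate 1 (0.049).

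LDHA (ENSG00000134333, chromosome 11), the lactate dehydrogenase subunit that favours lactate formation, stood at 229, 231 and 205 CPM in untreated WT cells and 83.8, 106 and 92.3 in treated WT cells. insR libraries held LDHA at 217, 273 and 220.4 CPM in DMSO and 194, 225 and 225 under the drug. Treated WT libraries lay below all the other 9, and the 2 insR groups overlapped. The WT log2 fold change was -1.24 (SE 0.10, adjusted p = 5.86e-10) against -0.14 (adjusted p = 0.828) in insR cells. LDHB, the other subunit, was at means of 765, 768, 741 and 757 CPM and was called in no comparison. The last 400 bases of GAPDH, TPI1, ENO1, PKM, LDHA, LDHB and BNIP3 have pseudogene copies of at least 95% identity, so reads from those stretches can be lost from the counts of these 7 genes and their levels are uncertain. Separately, 8 members overlap another gene on the same strand. For ALDOA and LDHB that gene, AC093512.2 and AC010197.2, also has a similar transcript end, so the split of reads with it is uncertain.

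Of the regulators, PFKFB4 and PFKFB3 encode bifunctional enzymes that set the level of an allosteric activator of phosphofructokinase. PFKFB4 (ENSG00000114268, chromosome 3) stood at 19.5, 13.8 and 15.2 CPM in untreated WT cells and 2.84, 4.80 and 3.77 in treated WT cells. insR libraries held PFKFB4 at 15.5, 14.2 and 13.7 CPM in DMSO and 9.02, 12.7 and 8.36 under the drug. Untreated groups of both kinds overlapped, and treated WT libraries were below all others. The WT log2 fold change of -2.08 (SE 0.22, adjusted p = 6.10e-08) was larger in size than the insR one of -0.56 (SE 0.20, adjusted p = 0.359), with a tested difference of 1.52 (adjusted p = 0.000614). PFKFB3 fell from 48.4 to 35.5 CPM in WT cells (-0.45, adjusted p = 0.00191). PDK1 and PDK3, kinases that switch off pyruvate dehydrogenase, were called under the drug in neither cell kind. PDK1 was at means of 29.9, 27.1, 24.4 and 19.9 CPM, and PDK3 at 10.1, 10.9, 9.84 and 9.76.

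**Figure D2:**
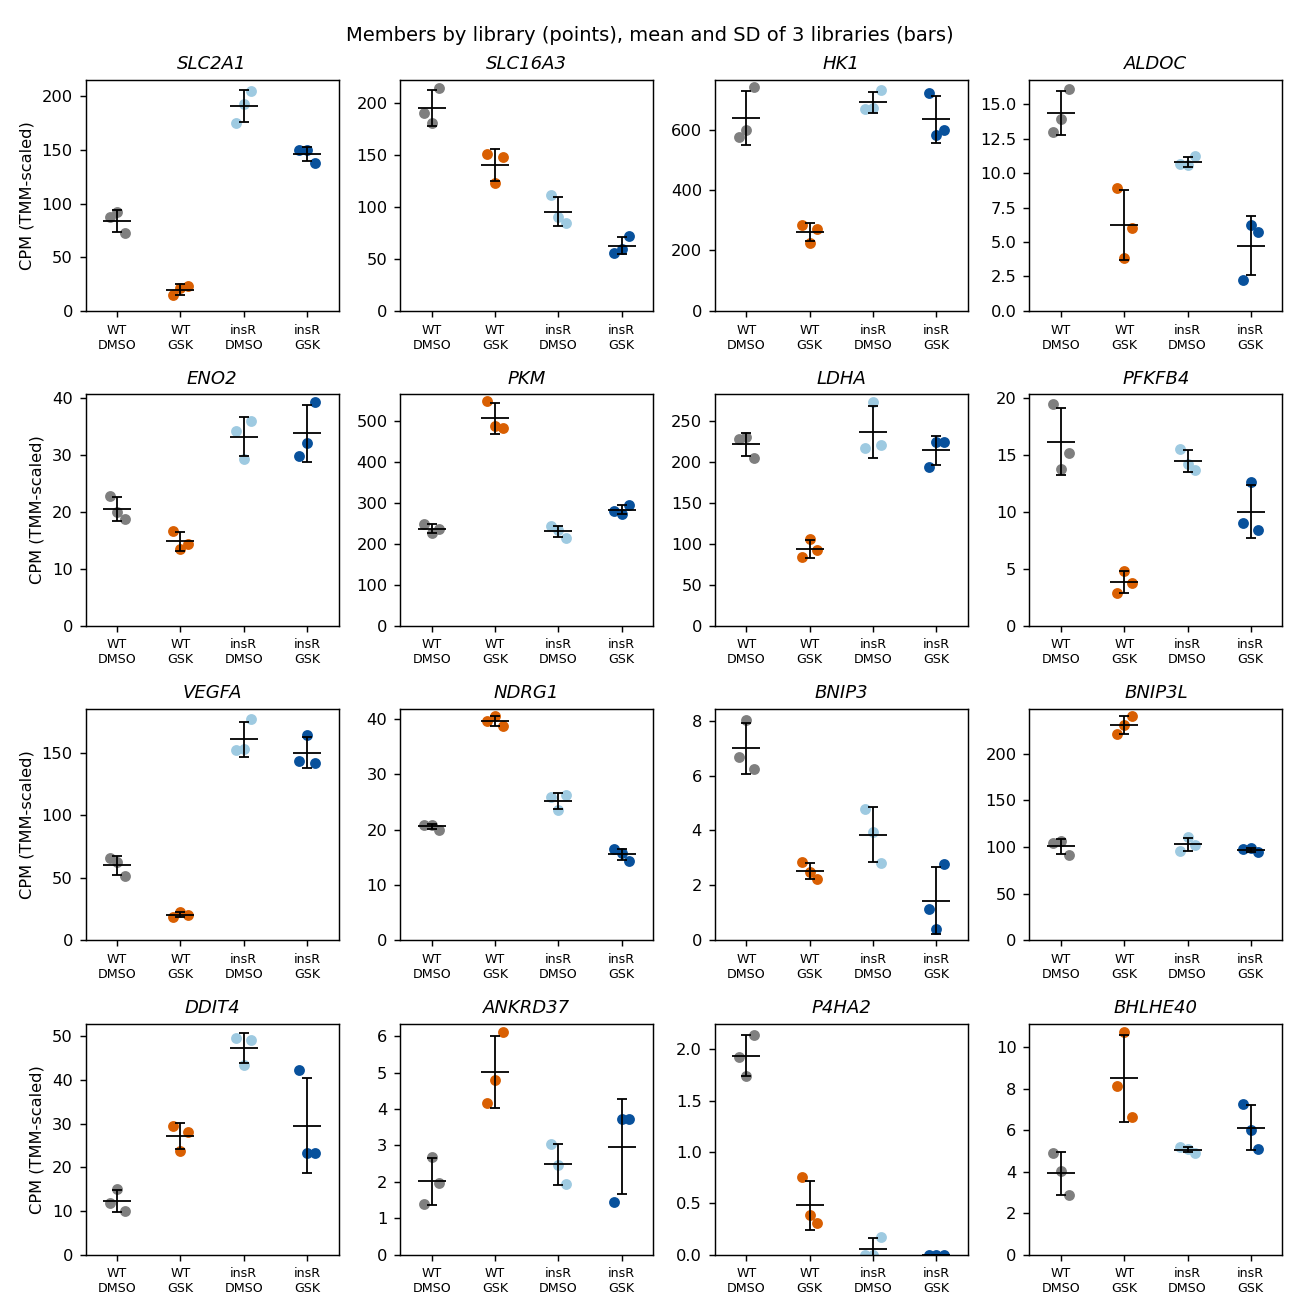
CPM of the 16 members given library by library, 1 panel per gene with its own linear axis from 0, points for the 3 libraries of each group and bars for the mean ± SD. SLC2A1, VEGFA, HK1, LDHA and PFKFB4 are low in the treated WT libraries, where PKM, BNIP3L and NDRG1 are high.

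Among the hypoxia targets, those that fell in WT cells act in angiogenesis, collagen modification and mitophagy. VEGFA (ENSG00000112715, chromosome 6), the main angiogenic growth factor, stood at 65.8, 62.7 and 51.1 CPM in untreated WT cells and 18.5, 22.5 and 20.5 in treated WT cells. insR libraries held VEGFA at 152, 154 and 178 CPM in DMSO and 144, 165 and 142 under the drug. All 6 insR libraries were above all 6 WT libraries, and the insR groups overlapped. The log2 fold change was -1.55 (SE 0.12, adjusted p = 1.17e-10) in WT and -0.10 (adjusted p = 0.906) in insR cells, and the difference was 1.45 (adjusted p = 1.53e-07).

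P4HA1 and P4HA2 encode prolyl hydroxylase subunits needed for collagen folding. P4HA1 fell from 73.5 to 42.8 CPM in WT cells (log2 -0.78, adjusted p = 0.000141) and went from 86.1 to 65.1 in insR cells (adjusted p = 0.317). P4HA2 had few counts, at 1.93, 1.74 and 2.14 CPM in untreated WT cells and 0.756, 0.384 and 0.305 in treated WT cells. insR libraries held P4HA2 at 0, 0 and 0.176 CPM in DMSO and at 0 in all 3 treated libraries. These were 36, 9, 1 and 0 summed counts in untreated WT cells, treated WT cells, untreated insR cells and treated insR cells, so the insR cells had next to none with and without the drug. The WT log2 fold change was -2.06 (SE 0.57), given with no p since untreated WT libraries alone brought the gene past the count filter, and no fold is given for the insR response.

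BNIP3 and BNIP3L encode related mitophagy receptors, and they moved in opposite directions in WT cells. BNIP3 stood at 6.67, 8.04 and 6.25 CPM in untreated WT cells and 2.84, 2.50 and 2.24 in treated WT cells. insR libraries held BNIP3 at 4.78, 3.96 and 2.81 CPM in DMSO and 1.13, 0.415 and 2.79 under the drug. Treated libraries were below untreated ones in both cell kinds, by a small margin in insR cells, where replicate 3 of the treated libraries was the highest of its group. The log2 fold changes were -1.49 (SE 0.34, adjusted p = 0.000827) in WT and -1.36 (SE 0.40, adjusted p = 0.168) in insR cells, and without that library the insR value was -2.25 (adjusted p = 0.0317).

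BNIP3L (ENSG00000104765), which clears mitochondria from maturing red cells, stood at 104, 106 and 91.6 CPM in untreated WT cells and 221, 231 and 241 in treated WT cells. insR libraries held BNIP3L at 95.6, 110.4 and 102 CPM in DMSO and 97.5, 98.7 and 94.6 under the drug. Treated WT libraries were above all the other 9, which overlapped. The log2 fold changes were 1.20 (SE 0.08, adjusted p = 2.74e-11) and -0.08 (adjusted p = 0.913), and they differed by -1.28 (adjusted p = 2.22e-08). SDAD1P1, a pseudogene on the opposite strand that overlaps BNIP3L, moved with it, from 6.33 to 14.0 CPM in WT cells (log2 1.14, adjusted p = 0.000272). Erythroid genes fell in the same libraries, and their part in the BNIP3L result was not tested.

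NDRG1 (ENSG00000104419), a differentiation and stress gene, stood at 20.9, 20.9 and 20.0 CPM in untreated WT cells and 39.7, 40.5 and 38.7 in treated WT cells. insR libraries held NDRG1 at 25.9, 23.6 and 26.2 CPM in DMSO and 16.4, 15.8 and 14.4 under the drug. It was high in treated WT libraries and lowest in treated insR libraries, with no overlap between treated and untreated libraries of either kind. It rose in WT (0.94, SE 0.12, adjusted p = 5.83e-07) and fell in insR cells (-0.70, SE 0.13, adjusted p = 0.00595), and the difference was -1.64 (adjusted p = 1.63e-07). The insR call was lost without insR GSK-LSD1 replicate 3 (adjusted p = 0.0506).

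DDIT4, an inhibitor of mTOR signaling induced by stress, stood at 11.8, 15.1 and 10.003 CPM in untreated WT cells and 29.5, 23.8 and 28.0 in treated WT cells. insR libraries held DDIT4 at 49.7, 43.4 and 49.0 CPM in DMSO and 42.2, 23.2 and 23.2 under the drug. Untreated WT libraries were the lowest and untreated insR libraries the highest. The WT response was 1.12 (SE 0.22, adjusted p = 0.000409) and the insR one -0.67 (SE 0.19, adjusted p = 0.177), with a difference of -1.80 (adjusted p = 0.000213). Replicate 1 of the treated insR libraries was nearly level with the untreated ones, and without it the insR value was -1.04 (adjusted p = 0.00106).

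ANKRD37, a small ankyrin-repeat protein gene, stood at 1.40, 2.68 and 1.96 CPM in untreated WT cells and 4.16, 4.80 and 6.11 in treated WT cells. insR libraries held ANKRD37 at 3.05, 2.47 and 1.93 CPM in DMSO and 1.45, 3.73 and 3.72 under the drug. WT groups did not overlap and insR groups did. ANKRD37 rose in WT cells by 1.31 (SE 0.35, adjusted p = 0.00385) on the log2 scale, while UFSP2, which overlaps it on the opposite strand, had a value of -0.21 (adjusted p = 0.136).

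BHLHE40, a transcriptional repressor that is also a clock gene, stood at 4.92, 4.02 and 2.86 CPM in untreated WT cells and 8.13, 10.8 and 6.62 in treated WT cells. insR libraries held BHLHE40 at 5.18, 5.11 and 4.92 CPM in DMSO and 7.25, 6.02 and 5.11 under the drug. The WT groups were apart and the insR groups overlapped. Its log2 fold changes were 1.08 (SE 0.26, adjusted p = 0.00148) and 0.27 (adjusted p = 0.906), and the difference of -0.81 was not called (adjusted p = 0.109).

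The remaining hypoxia targets were near the limit of detection. CA9, a carbonic anhydrase at the cell surface, had summed counts of 2, 0, 21 and 4 in untreated WT cells, treated WT cells, untreated insR cells and treated insR cells. The ratio of insR to WT in DMSO was 9.12, with a 95% counting interval of 2.23 to 80.2. This interval pools the reads of a group and leaves out the spread among libraries. CA9 was at 0.305, 1.81 and 1.23 CPM in untreated insR libraries and 0.176, 0.134 and 0 in untreated WT libraries, and the difference was not tested. ADM, which encodes the vasodilator peptide adrenomedullin, had 3, 0, 7 and 3 counts. At this depth no difference in ADM was detectable.

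In insR cells GSK-LSD1 changed 2 of the 33 tested members, SLC16A3 and NDRG1, both lower, and none higher. Over all genes tested, 0.264% were lower and 0.241% higher, 0.505% or 65 genes in all. At an unadjusted p below 0.05, edgeR found 11 members lower and 2 higher, where 996 of 12864 genes passed in either direction. DESeq2 called 1 member, PKM, higher at an adjusted p below 0.05. The median log2 fold change of the members was -0.12, against -0.00 over all genes, and 25 of 33 values were below 0. Treated libraries lay wholly below untreated ones for 13 members, where 6.44% of all genes did so, and wholly above for 2, where 7.21% did. Those 13 included SLC2A1, ALDOC and BNIP3. The count of lower members was 5 when only the insR libraries were fitted and 6 with no filter on low counts. Without WT GSK-LSD1 replicate 1 it was 4, with 1 member higher, and without replicate 1 of untreated insR cells, and likewise without replicate 2 of treated ones, it was 1.

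Whether the 2 responses differed was tested as an interaction, the insR response minus the WT response. It was called for 14 members, where 25.1% of all genes were called, 9 with a positive value and 5 with a negative one, where 13.3% and 11.8% of all genes had such values. Positive values, of genes that fell in WT cells, were those of SLC2A1 (1.66), PFKFB4 (1.52), VEGFA (1.45), HK1 (1.17), LDHA (1.10), GPI (0.72), ALDOA (0.61), PFKP (0.38) and TPI1 (0.35). Negative values, of genes that rose in WT cells, were those of DDIT4 (-1.80), NDRG1 (-1.64), BNIP3L (-1.28), PKM (-0.79) and PFKL (-0.34). For SLC16A3, ALDOC and BNIP3 the interaction was -0.15 (SE 0.16), -0.01 (SE 0.36) and 0.13 (SE 0.56), and none was called. The calls of PFKL, PFKP and TPI1 each depended on single libraries and on the processing. Their adjusted p went from 0.0331 to 0.108 for PFKL without WT DMSO replicate 1, from 0.0326 to 0.0973 for PFKP without WT GSK-LSD1 replicate 3, and from 0.0382 to 0.117 for TPI1 without WT GSK-LSD1 replicate 2, the highest values on leaving out 1 library. PFKL also lost its call without WT DMSO replicate 2, WT GSK-LSD1 replicate 1 or 3, replicate 1 of untreated insR cells, or replicate 2 or 3 of treated ones. PFKP lost it without WT DMSO replicate 1 or 2, replicate 2 or 3 of untreated insR cells, or replicate 3 of treated ones. TPI1 lost it without WT DMSO replicate 3, WT GSK-LSD1 replicate 3, any of the insR DMSO replicates, or insR GSK-LSD1 replicate 1 or 2. With all libraries kept, upper-quartile scaling lost the calls of TPI1 (adjusted p = 0.0667) and PFKP (0.0576). DESeq2 lost that of TPI1 (0.0508), and edgeR with no filter on low counts lost that of PFKL (0.0609).

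The next comparison set insR against WT cells in DMSO, and it shares the libraries of untreated WT cells with the WT response. Untreated insR cells held more DDIT4 (3.81-fold), VEGFA (2.68-fold), SLC2A1 (2.27-fold), ENO2 and SLC16A1, and less SLC16A3 and P4HA2. Of 33 members tested, 7 were higher and 5 lower, 12 in all, where 14.5% of all genes were higher, 15.6% lower and 30.1% either. Without insR DMSO replicate 2 or 3 the lower members numbered 3. The median log2 difference of the 33 was 0.10, also with P4HA2 at its count ratio. SLC2A1 had a log2 difference of 1.18 (SE 0.11, adjusted p = 2.78e-08), VEGFA 1.42 (SE 0.10, 5.57e-11), DDIT4 1.93 (SE 0.21, 1.16e-06), ENO2 0.70 (SE 0.14, 0.000333) and SLC16A3 -1.02 (SE 0.11, 1.88e-07). For P4HA2 the summed counts were 36 in WT and 1 in insR cells, a ratio of 41.4 with a 95% counting interval of 6.98 to 1682, and no p is given since untreated WT libraries alone brought it past the count filter. Without P4HA2 the lower members numbered 4. HK1, LDHA, PKM, PFKFB4 and BNIP3L, which all moved by at least 2-fold under the drug in WT cells, were not called between untreated cells, with log2 values from -0.14 to 0.11. ALDOC, ANKRD37 and BHLHE40 also moved that far and were not called, but their means lay further apart. They were at 14.3, 2.02 and 3.93 CPM in untreated WT cells and 10.8, 2.49 and 5.07 in untreated insR cells. Untreated insR libraries lay wholly below untreated WT ones for ALDOC.

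The other calls in DMSO were SLC2A3 (0.25) and PFKM (0.40), higher, and GPI (-0.35), PFKL (-0.26) and BNIP3 (-0.83), lower in insR cells. PFKM was not called without WT DMSO replicate 3 (adjusted p = 0.112), insR DMSO replicate 2 (0.0597) or insR DMSO replicate 3 (0.098). PFKL likewise lost its call without WT DMSO replicate 3 (0.109), insR DMSO replicate 2 (0.0855) or insR DMSO replicate 3 (0.0585). The BNIP3 call (adjusted p = 0.0446) was lost in 8 of 22 alternatives. Among these were DESeq2 (0.063), limma-trend (0.139) and leaving out WT DMSO replicate 1 (0.0695) or 2 (0.164), WT GSK-LSD1 replicate 3 (0.052), or insR DMSO replicate 2 (0.0986) or 3 (0.156). Summed erythroid levels were also higher in insR than in WT cells, and their part in these differences was not tested. In untreated cells that sum is mostly HBG1 and HBG2, with means of 1119 and 746 CPM in WT and 2536 and 2193 in insR cells. By gene, 8 of the 11 tested erythroid genes were higher in insR cells in DMSO, 1 was lower and 2 were not called.

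**Figure D3:**
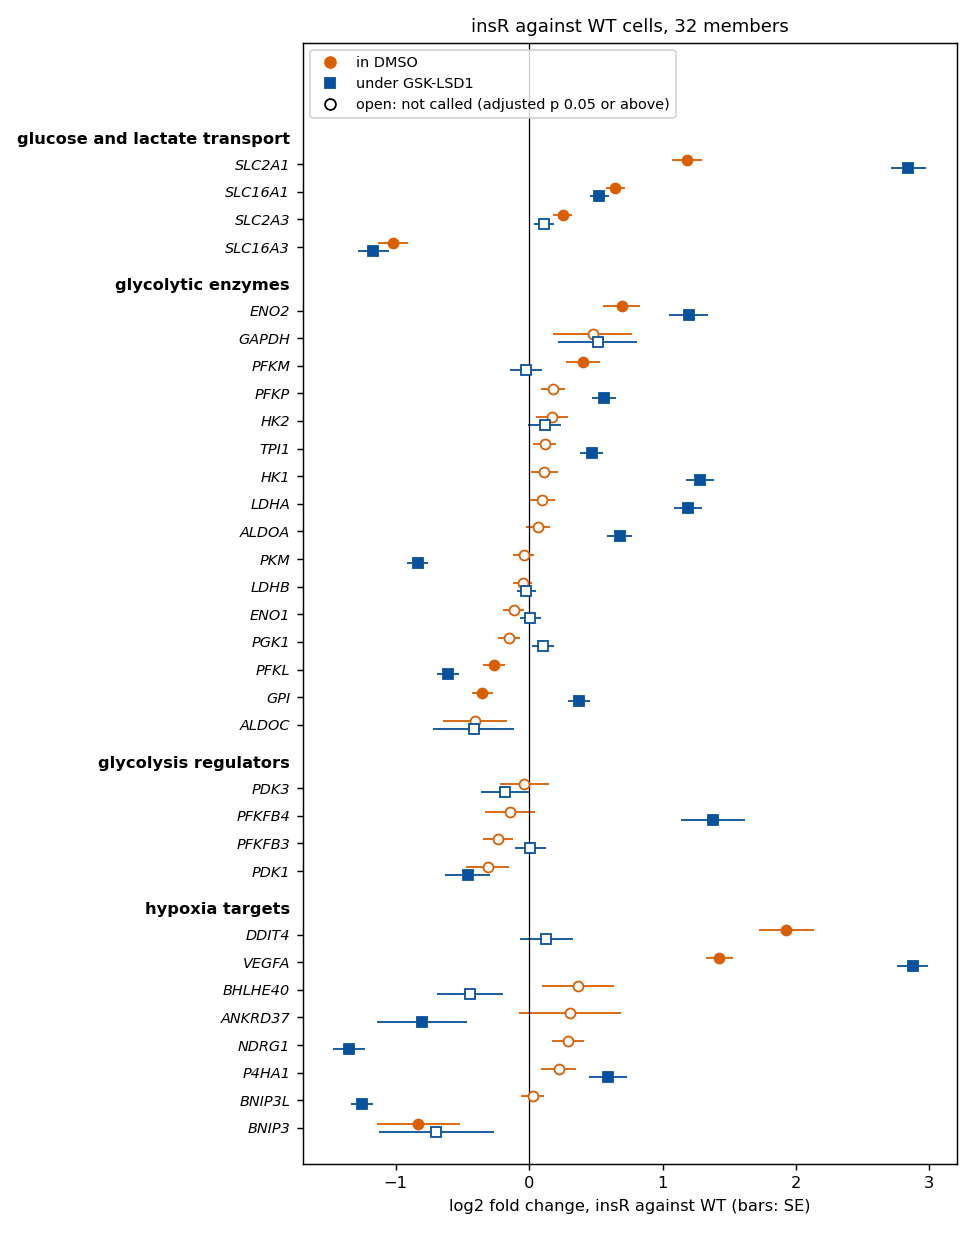
Log2 difference of insR against WT cells for 32 members in DMSO (orange circles) and under GSK-LSD1 (blue squares), by role, with bars of 1 SE and open symbols for values not called at an adjusted p of 0.05; P4HA2 is left out because insR cells had 1 and 0 counts. SLC2A1 and VEGFA lie near 1.18 and 1.42 in DMSO and near 2.84 and 2.87 under the drug, and HK1, LDHA and PFKFB4 are near 0 in DMSO and above 1 under the drug.

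Under GSK-LSD1 the cells with WT and insR LSD1 were further apart. insR cells held more VEGFA (7.33-fold), SLC2A1 (7.18-fold), PFKFB4 (2.599-fold), HK1 (2.43-fold), ENO2 (2.29-fold) and LDHA (2.28-fold). They held less NDRG1 (2.55-fold), BNIP3L (2.38-fold), SLC16A3 (2.25-fold) and PKM (1.78-fold). Of 33 members, 12 were higher and 8 lower, 20 in all, where 27% of all genes were higher, 27.5% lower and 54.5% either, and the median log2 difference was 0.11. VEGFA had a log2 difference of 2.87 (SE 0.11, adjusted p = 4.54e-16), SLC2A1 2.84 (SE 0.13, 5.27e-14), BNIP3L -1.25 (SE 0.08, 6.03e-12) and NDRG1 -1.35 (SE 0.12, 1.67e-09). DDIT4, 3.81-fold higher in DMSO, was at 0.13 under the drug (adjusted p = 0.605). P4HA2 was at least 2.58-fold lower in insR cells, set against 3 counts over the group. No p is given for it, since untreated WT libraries alone brought it past the count filter. Without P4HA2 the lower members numbered 7.

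GPI was the member with calls of opposite sign, -0.35 in DMSO (adjusted p = 0.00106) and 0.37 under the drug (adjusted p = 0.000312). Other members higher in treated insR cells were ALDOA (0.68), P4HA1 (0.59), PFKP (0.56), SLC16A1 (0.53) and TPI1 (0.47). Others lower were PFKL (-0.61), PDK1 (-0.46) and ANKRD37 (-0.80). The PDK1 call (adjusted p = 0.024) was lost without WT GSK-LSD1 replicate 2 (0.0794) or 3 (0.123), or insR GSK-LSD1 replicate 1 (0.16). The ANKRD37 call (adjusted p = 0.0472) was lost in 9 of 22 alternatives, with adjusted p up to 0.261, among them leaving out WT GSK-LSD1 replicate 2 (0.0601) or 3 (0.219), replicate 2 of untreated insR cells (0.0561) or replicate 1 of treated insR cells (0.261). Without that last library its log2 difference was -0.47. BNIP3 was not called under the drug (adjusted p = 0.177) but was without insR GSK-LSD1 replicate 3 (0.0111).

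Summed over the role, the 17 glycolytic enzymes were at 7623 ± 255 CPM in untreated WT cells, 6408 ± 382 in treated WT cells, 8098 ± 662 in untreated insR cells and 7533 ± 674 in treated insR cells (SD, n = 3). The 11 hypoxia targets were at 282 ± 34.7, 377 ± 15.9, 435 ± 22.1 and 369 ± 18.9 CPM in the same order. The summed enzyme level was thus lowest in treated WT cells, and the summed hypoxia targets were lowest in untreated WT cells. The hypoxia sum is carried by few genes. In WT cells BNIP3L alone went from 101 to 231 CPM, while 5 of the 9 tested targets were higher and 4 lower.

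Other genes of the same pathways, from lists chosen for their function, were counted in the same fit. Of 23 other glycolysis genes, 13 could be tested, and 4 were higher and 5 lower in WT cells under the drug, where 22.7% of all genes were higher and 22.5% lower. The higher ones include TIGAR, with counts of 6, 6 and 2 in untreated and 24, 35 and 35 in treated WT cells. Its insR libraries held at most 2. Treated WT libraries alone, the high group, brought TIGAR past the count filter, so its call is no support for a rise. GALM, which interconverts the forms of galactose and glucose, rose from 14.98 ± 1.82 to 63.9 ± 6.04 CPM (log2 2.09, adjusted p = 7.71e-13). PGM1, which links glycogen to glycolysis, fell by 1.03 on the log2 scale (adjusted p = 6.49e-06) and PGAM5, a mitochondrial phosphatase, by 1.01 (7.20e-06). BSG, the chaperone of the lactate transporters, rose by 0.64 (1.46e-05). In insR cells 0 of the 13 were called by edgeR. At an unadjusted p below 0.05, 1 was lower and 0 higher, where 996 of 12864 genes passed in either direction. GALM in insR cells was at 67.4 ± 5.68 CPM in DMSO and 65.5 ± 3.27 under the drug.

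Of 36 other hypoxia targets 30 could be tested, and 5 were higher and 9 lower in WT cells under the drug, a called share near the 45.2% of all genes. The higher ones include STC2, with counts of 7, 14 and 3 in untreated and 15, 21 and 25 in treated WT cells, and 0 in every insR library. Treated WT, the high group, was the only group with all its libraries past the count filter, so the STC2 call is no support for a rise. FAM162A, a mitochondrial hypoxia-induced gene, fell from 145 ± 10.5 to 46.7 ± 4.28 CPM (log2 -1.63, adjusted p = 2.67e-12). TFRC, the transferrin receptor of iron uptake and itself an erythroid gene, changed by -1.57 (2.66e-11), SLC6A8, the creatine transporter, by -2.34 (2.37e-08), and CXCR4, a chemokine receptor, by 1.71 (6.59e-08). In insR cells 2 were called, both lower, SLC6A8 at -0.93 (adjusted p = 0.0177) and FAM162A at -0.44 (0.0268). The difference in response was called for 7 with a positive and 2 with a negative value, where 25.1% of all genes were called, while over all 30 tested 11 values were above 0 and 19 below, with a median of -0.12. It was 1.41 for SLC6A8 (0.00165) and 1.19 for FAM162A (6.68e-07).

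The step after glycolysis, the entry of pyruvate into mitochondria and its oxidation, had 6 lower and 0 higher of 11 genes in WT cells. Of all genes tested, 22.5% were lower and 22.7% higher. At an unadjusted p below 0.05, 7 of the 11 were lower and 0 higher, where 6652 of 12864 genes passed in either direction. DLAT, a subunit of pyruvate dehydrogenase, fell from 104 ± 7.60 to 55.7 ± 0.679 CPM (log2 -0.91, adjusted p = 5.72e-08), and PDHB (-0.47), DLD (-0.41) and the pyruvate carrier subunit MPC1 (-0.69) fell less. In insR cells 0 of the 11 were called by edgeR. At an unadjusted p below 0.05, 1 was lower, where 996 of 12864 genes passed in either direction. Of 10 pentose phosphate genes 9 could be tested, and 3 were higher and 3 lower in WT cells, against the same shares of all genes. PGD rose by 0.56 (0.000372) and PGLS by 0.68 (0.00105), both of the oxidative branch, while RPE, of the other branch, fell by 0.70 (0.00119). H6PD, the form of the first enzyme in the endoplasmic reticulum, rose from 4.99 ± 0.683 to 9.38 ± 0.105 CPM in WT cells and was at 0.654 ± 0.154 CPM in untreated insR cells, a log2 difference of -2.92 from untreated WT cells (adjusted p = 3.31e-07).

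**Figure D4:**
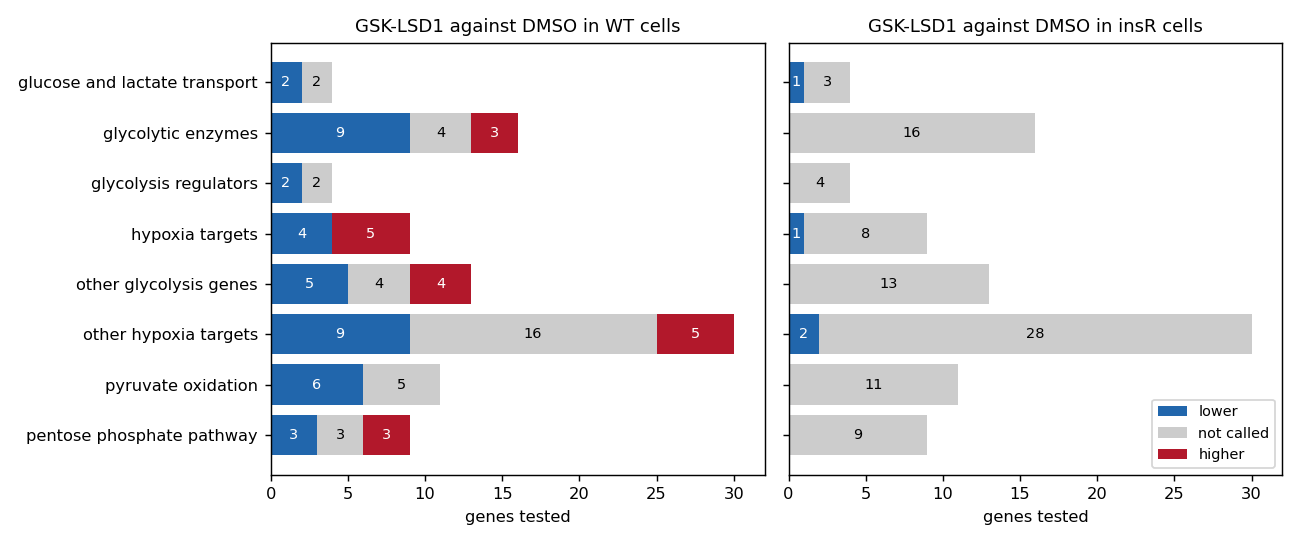
Number of tested genes lower (blue), not called (grey) and higher (red) under GSK-LSD1 for each list, in WT cells (left) and insR cells (right), at an edgeR adjusted p below 0.05. The WT panel has both colours in most lists, 9 lower and 3 higher for the glycolytic enzymes, while the insR panel has 1, 1 and 2 lower genes in 3 lists.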

How the data were processed

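Transcripts were measured in SET-2 cells, with groups and replicate numbers read from the sample titles of the 12 libraries. Polyadenylated RNA was made into libraries with QuantSeq forward, a kit that primes at the 3' end, per the labels' protocols, so a transcript gives reads near its end whatever its length. Per the submitters' processing notes, STAR 2.6.0c, bcl2fastq 2.2, DESeq2 and HTSeq 0.9.1 were used, with the build hg19. Neither the strand setting nor the annotation release is given in the sources used here. The deposited counts are raw, whole reads per gene. A deposited table of normalized signal was found to equal these counts over a size factor for each library: scaled back, 100% of nonzero values were whole to within 0.01, and 0 genes differed from the deposited count.

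Reads under entries without a gene name entered neither library sizes nor tests. The entry for reads aligned to several places held 57.9% to 62.6% of a table's total, which may count a read more than once, and that for ambiguous reads 0.676% to 0.748%. No 2 libraries of a group agreed within sampling noise (chi-square per degree of freedom of 2.85 to 7.45). All 12 libraries and the 12864 genes that passed filterByExpr went into a single robust quasi-likelihood fit (edgeR 4.0.16, R 4.3.3, TMM scaling), with Benjamini-Hochberg adjustment over all genes and calls below 0.05. All 5 comparisons come from this fit, so they share libraries. Standard errors are the log2 fold change over the square root of the quasi-likelihood F. The fits were tested on simulated data. Where a group had 1 to 3 counts, the ratio sets the groups' summed counts against their scaled library sizes, with 95% exact counting intervals. These intervals cover counting error only and leave out the spread among libraries.

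The members and lists were chosen with earlier results of these data known. KDM1A, HIF1A and EPAS1 are given by group means. Every library is given for each member called with an absolute log2 fold change of at least 1 in any comparison, and for those called in the insR response. Other members are given by fold change, mean or count, and other lists by counts and up to 4 genes of lowest p. The values of GAPDH and CA9 by library, of the overlapping genes CSNK1D, SENP1, SDAD1P1 and UFSP2, and of TIGAR, STC2, HBG1 and HBG2 were added after they were seen. Of 10 megakaryocyte genes, 6 could be tested. In WT cells under the drug ITGA2B was higher (735 to 1182 CPM, log2 0.68), GP9 (-1.56), ITGB3 (-1.29) and GP6 (-3.03) were lower, and the list's median was -0.98. Its sum of 816 to 872 CPM in WT DMSO and 1152 to 1332 in WT GSK-LSD1 is mostly ITGA2B. Lymphoid genes summed to 11.6 to 13.9 and 17.5 to 23.1 CPM.

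Other scalings (upper quartile, DESeq2 size factors, library size only), 2 other count filters, DESeq2 1.42.0, limma-voom and limma-trend (limma 3.58.1, the latter on log2 of the deposited signal plus 1), stricter thresholds, a replicate block, fits without the groups not compared, and fits lacking 1 library were tried as alternatives. Replicate numbers showed no sign of pairing the samples. Gene overlaps and similar ends were read from GENCODE 29, of a later build than hg19, by name only, and similarity was searched with BLAST+ 2.17.0. Plots were made with Python 3.11.15 and matplotlib 3.10.9.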

Additional observations from a re-analysis of the deposited data

Results flagged for a closer look

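For 14 members the response to GSK-LSD1 differed between insR and WT cells by the interaction test of edgeR, given here as the insR minus the WT log2 fold change with its adjusted p. Positive values were 1.66 for SLC2A1 (3.21e-07), 1.52 for PFKFB4 (0.000614), 1.45 for VEGFA (1.53e-07), 1.17 for HK1 (5.59e-06), 1.10 for LDHA (3.35e-06), 0.72 for GPI (3.45e-05), 0.61 for ALDOA (0.00106), 0.38 for PFKP (0.0326) and 0.35 for TPI1 (0.0382). These genes take part in glucose uptake, glycolysis and angiogenesis, and all 9 fell in WT cells. Negative values were -1.80 for DDIT4 (0.000213), -1.64 for NDRG1 (1.63e-07), -1.28 for BNIP3L (2.22e-08), -0.79 for PKM (1.01e-05) and -0.34 for PFKL (0.0331). All 5 of these rose in WT cells. Of the 14, NDRG1 was also called in insR cells, in the opposite direction (-0.70 against 0.94 in WT cells). Erythroid markers had the same kind of difference, with an interaction called positive for 10 of the 11 genes tested, and its part in these values was not tested.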

How the results depend on the processing

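The limits are 3 libraries per group and, for BNIP3, P4HA2, ALDOC, ANKRD37 and BHLHE40, levels of a few CPM. The 83 single calls were those of the members and of KDM1A, HIF1A and EPAS1. They kept their direction under all 1807 alternative values, with 1751 values still called and 56 not. No call of KDM1A, HIF1A, EPAS1 or P4HA2 was lost. Those of P4HA2 are no support, since untreated WT libraries alone brought it past the count filter. For EPAS1, treated WT, its high group, was the only group with all libraries past that filter. Its calls in comparisons that involve treated WT cells are therefore no support by themselves. Its rise in WT cells rests on the levels, 1.42 CPM in untreated and 109 in treated WT cells. 72 calls were kept under every alternative, and 11 were lost under at least 1: SLC16A3 and NDRG1 in insR cells, ENO2 in WT cells, PFKL, PFKP and TPI1 in the difference in response, BNIP3, PFKL and PFKM in DMSO, and PDK1 and ANKRD37 under GSK-LSD1. Under the 3 other scalings the median of all genes stayed between -0.06 and 0.06 in each comparison. Of 17 members lower in the WT response, 11 were at least 1.5-fold lower. For the insR response, 1 member was higher with library size only, with no count filter and with DESeq2, against 0. Lower members there numbered 6 with no count filter, 5 with only the groups compared and 1 at an adjusted p below 0.01, against 2. In DMSO 3 members were lower at an adjusted p below 0.01 and 3 at 1.5-fold, against 5, and under GSK-LSD1 5 were lower at 0.01, against 8. The thresholds remove calls by construction, and the cause of the other shifts was not tested.

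On leaving out 1 library in turn, members numbered 8 to 8 higher and 16 to 17 lower for the WT response, 0 to 1 and 1 to 4 for the insR response, 7 to 10 and 4 to 5 for the difference, 6 to 7 and 3 to 5 in DMSO, and 12 to 12 and 6 to 9 under GSK-LSD1. Correlations of same-numbered libraries ran from -0.169 to 0.198, with 3 of 18 above 0.1. Those of differently numbered libraries ran from -0.313 to 0.289, with 5 of 36 above 0.1. No sign of pairing by number was seen, and such correlations cannot show that pairing was absent. With a replicate block the counts were 8 higher and 17 lower for the WT response, 0 and 2 for the insR response, 9 and 5 for the difference, 7 and 4 in DMSO, and 12 and 7 under GSK-LSD1. Of 36 pairings of a library with another group, 12 had the highest correlation at its own number.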
